A study of Mus musculus with 4 samples.

Results

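The Ccl5-positive memory-like T cells described here are spleen cells that carried RNA of the T-cell receptor complex and of the chemokine gene Ccl5. They were chosen by raw molecule counts (UMIs, each standing for 1 captured RNA molecule). A member had at least 2 UMIs of Cd3d, Cd3e and Cd3g together, at least 2 of Ccl5, none of Foxp3, Ncr1, Cd79a or Ms4a1, and fewer than 5 of Lyz2. Of 24106 barcodes, 20476 showed 200 or more genes with no more than 10% of UMIs from mitochondrial genes, and 471 of these were members. By the same gate without the Ccl5 condition there were 3694 T cells. A further 170 T cells held exactly 1 Ccl5 UMI and lay just outside, and 47 members held exactly 2 and lay just inside. Because the members were picked by these counts, their Ccl5 and Cd3 levels are given only as a description.

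Mice were 10 weeks old and on the C57BL/6 background, and spleens were taken 4 h after an intravenous injection of 100 µl. The groups were mice labelled TRIF-KO given 9 µg recombinant murine TNF (171 members), mice labelled TRIF-KO given PBS (116 members), wild-type C57BL/6 mice given the same TNF dose (116 members) and wild-type mice given PBS (68 members). Each group was 1 droplet-based 10x Genomics library, and no label says how many mice stand behind a library. The design asks how loss of TRIF bears on the response of spleen cells to TNF. All suspensions had been freed of red and dead cells. With 1 library per group, no difference between groups has a replicate check, so ratios carry 95% intervals that cover counting error only, no p-value is given for them, and mouse, genotype, treatment and library preparation cannot be told apart.

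Memory T cells are antigen-experienced or cytokine-driven lymphocytes that keep chemokine, cytotoxic and natural-killer receptor genes ready for use, and Ccl5 messenger RNA is stored in resting memory CD8 cells. In the spleen they respond to inflammatory cytokines without needing their antigen. TNF binds the receptors encoded by Tnfrsf1a and Tnfrsf1b, which activate NF-kB, and NF-kB in turn induces its own inhibitors. TRIF, encoded by Ticam1, is the adaptor of TLR3 and one of the adaptors of TLR4.

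Ticam1 was too sparse to check the genotype. In the Ccl5-positive cells it had 7 UMIs in the TRIF-KO TNF library and 4 in the TRIF-KO PBS library, against 5 in the wild-type TNF library and 3 in the wild-type PBS library. Over all kept barcodes it stood at 5.77 and 8.32 CPM (UMIs of a gene scaled to a fixed total per library) in the TRIF-KO TNF and PBS libraries, against 3.90 and 6.64 CPM in the wild-type TNF and PBS libraries. The level was thus not lower in the libraries labelled TRIF-KO, and since the labels give no allele and the reads come from the end of a transcript, RNA outside a deleted part would still be counted. Genotypes below are the labels'.

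The members held 2130953 UMIs in the TRIF-KO TNF library, 896080 in the TRIF-KO PBS library, 1034858 in the wild-type TNF library and 790891 in the wild-type PBS library. Their median depth per cell was 11231, 7345.5, 8525.5 and 11068.5 UMIs in the same order. No member barcode was shared between libraries, and pairs of libraries shared 3 to 15 barcodes in all. Deeper cells reach 2 Ccl5 UMIs more easily, so shares were also computed after each cell was thinned to 2000 or to 1000 UMIs.

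Ccl5-positive cells made up 14.1% of gated T cells in the TRIF-KO TNF library (95% Clopper-Pearson interval 12.2 to 16.2) and 9.90% in the TRIF-KO PBS library (8.25 to 11.8). In wild-type spleens they made up 12.9% with TNF (10.7 to 15.2) and 16.7% with PBS (13.2 to 20.7). The TRIF-KO PBS library therefore had the lowest share and the wild-type PBS library the highest. Thinned to 2000 UMIs, the shares were 10.1% and 8.38% in TRIF-KO TNF and PBS and 9.97% and 11.3% in wild-type TNF and PBS. Thinned to 1000 UMIs, they were 8.72% and 5.8% in TRIF-KO TNF and PBS and 8.60% and 12.9% in wild-type TNF and PBS. The order of the PBS libraries was the same at each depth, while their distance was smaller at 2000 UMIs and larger at 1000 UMIs than as found. The ratio of the TRIF-KO to the wild-type share with PBS was 0.592 (0.435 to 0.811) as found, 0.743 (0.517 to 1.08) at 2000 UMIs and 0.448 (0.284 to 0.711) at 1000 UMIs. The ratio of TNF to PBS in TRIF-KO was 1.42 (1.12 to 1.82) as found, 1.20 (0.905 to 1.60) at 2000 UMIs and 1.5 (0.996 to 2.28) at 1000 UMIs. In wild-type it was 0.770 (0.566 to 1.05), 0.884 (0.606 to 1.31) and 0.664 (0.414 to 1.07). The interval for TRIF-KO against wild-type with PBS thus excluded 1 as found and at 1000 UMIs but not at 2000 UMIs, and that for TNF against PBS in TRIF-KO excluded 1 only as found. At least 2 Ccl5 UMIs were found in 0.849% and 0.933% of B cells of the TRIF-KO TNF and PBS libraries and in 0.455% and 0.480% of those of the wild-type TNF and PBS libraries, cells that should lack the gene and had median depths of 5716.5, 3861.5, 4131 and 6003 UMIs.

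**Figure D1:**
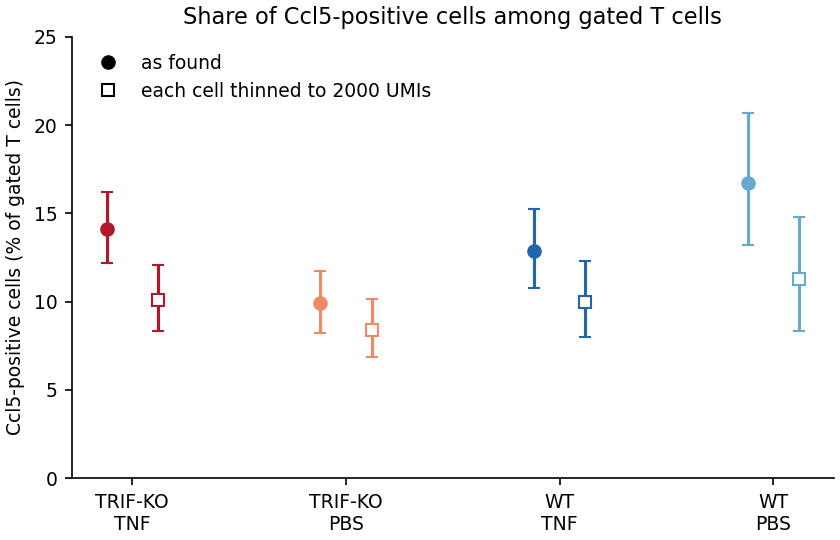
Ccl5-positive cells as a percentage of gated T cells in each library (x axis), as found (filled circles) and after each cell was thinned to 2000 UMIs (open squares), with 95% Clopper-Pearson intervals that cover counting error only. The shares run from 9.90% to 16.7% as found and from 8.38% to 11.3% at 2000 UMIs, and at 1000 UMIs, which is not drawn, from 5.8% to 12.9%.

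Among gated T cells, the Ccl5-positive ones had higher levels of memory and effector genes in all 4 libraries. All 18 genes of the memory and effector list with at least 100 UMIs were higher than in Ccl5-negative T cells in every library. So were all 8 such genes of the natural-killer list and all 6 of the gamma-delta list. Median log2 differences were 2.48 for the memory list, 4.11 for the natural-killer list and 3.33 for the gamma-delta list. The full count was thus not particular to memory genes. Over all 9290 genes, 16.3% were higher in all 4 libraries. Ccl5, the only gate gene of the memory list, was not among the 18. The cells were chosen by Ccl5 and the lists hold genes that move with it, so this describes the cells and tests nothing. The gene for Il2rb, the receptor subunit through which memory CD8 cells sense IL-15, stood at 390.9, 333.7, 458 and 449 CPM in Ccl5-positive cells of the TRIF-KO TNF, TRIF-KO PBS, wild-type TNF and wild-type PBS libraries, against 41.1, 34.8, 55.1 and 54.1 CPM in Ccl5-negative T cells. Nkg7, a cytotoxic granule gene, was 1.87 to 2.33 higher on the log2 scale over the 4 libraries. Cxcr3, the receptor that guides effector and memory cells to sites of interferon, was 2.35 to 3.03 higher. Both markers that named the cells thus stood above the other T cells in each library.

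Transcription factor and adhesion genes followed. Tbx21, which drives type 1 effector fate, was 3.27 to 5.03 higher on the log2 scale, Cd44 was 2.01 to 2.34 higher and Ly6c2, a surface protein of memory CD8 cells, was 2.60 to 3.43 higher. Ranked by the lowest of the 4 libraries, receptors shared with natural killer cells came first among measured genes. Klra7 was 6.67 to 8.92, Klrc2 6.27 to 7.79 and Klrk1 5.24 to 6.11 higher. The granzyme gene Gzmm was 4.99 to 6.6 higher, and the protease inhibitor genes Serpina3f and Serpina3g were 5.18 to 6.68 and 3.87 to 6.27 higher. On the other side, 8 of 12 genes of the naive list were lower in all 4 libraries, where 11.1% of all genes were. These included Lef1, a factor of naive T cells (-1.24 to -1.04), the lymph node homing receptor Ccr7 (-1.49 to -0.87) and Bach2, which restrains effector genes (-1.84 to -0.92). Klr and Klra genes and the serpin genes of the Serpina3 cluster have close paralogs between which reads may be split, so their single levels are uncertain.

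**Figure D2:**
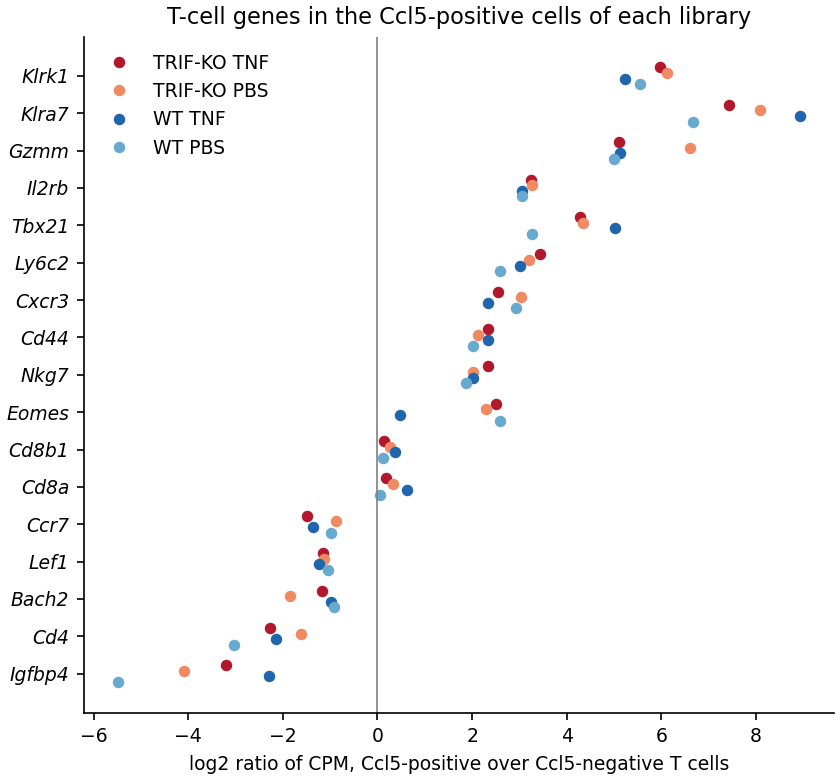
Log2 ratio of summed CPM in Ccl5-positive over Ccl5-negative T cells for selected T-cell genes, 1 point per library (colours). Natural-killer receptor, granzyme and memory genes lie right of 0 in all 4 libraries, Cd8a and Cd8b1 lie near 0, and Lef1, Ccr7, Bach2, Cd4 and Igfbp4 lie left of it.

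As found, most members carried CD8 RNA. Cd8a or Cd8b1 without Cd4 was seen in 54.4% of members in the TRIF-KO TNF library, 63.8% in the TRIF-KO PBS library, 62.9% in the wild-type TNF library and 69.1% in the wild-type PBS library. Cd4 alone was seen in 12.9%, 11.2%, 6.90% and 8.82%, and neither in 32.2%, 25%, 27.6% and 20.6%. With or without Cd4, Cd8a or Cd8b1 was seen in 55.0%, 63.8%, 65.5% and 70.6% of members. In Ccl5-negative T cells it was seen in 42.8%, 44.1%, 44.5% and 52.1%. In B cells of the same libraries, Cd8a or Cd8b1 was seen in 0.876% to 1.68% and Cd4 in 0.0943% to 0.5%. At least 2 UMIs of Trdc, the delta-chain gene of gamma-delta T cells, were found in 11.1%, 11.2%, 6.90% and 7.35% of members. They were found in none of the 3182, 3002, 2855 and 1249 B cells, which allows a share of up to 0.0943%, 0.0999%, 0.105% and 0.240%. Natural killer cells of the same libraries held Trdc at 72.1, 92.4, 72.0 and 71.4 CPM, against 90.6, 126, 58.0 and 83.5 CPM in members. Trdc alone therefore does not identify gamma-delta cells here. Of the gamma-chain genes, Tcrg-C1 was 1.60 to 4.74, Tcrg-C2 2.68 to 5.41 and Tcrg-C4 0.05 to 1.31 higher than in natural killer cells, on the log2 scale. The CD8 and Trdc shares were lower at equal depth. Thinned to 2000 UMIs, CD8 RNA alone was seen in 31.8%, 52.1%, 36.7% and 44.4%. Set against natural killer cells of the same libraries, the members were 7.06 to 9.31 higher in Cd8b1 and differed by -7.00 to -5.52 in the granzyme gene Gzma, on the log2 scale, and the 14 natural-killer markers summed to 586, 511, 442 and 704 CPM against 15077, 21593, 18978 and 19922 CPM.

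Some barcodes held RNA of other cell types as well. In 6, 4, 2 and 1 members of the TRIF-KO TNF, TRIF-KO PBS, wild-type TNF and wild-type PBS libraries, haemoglobin made up over 2% of UMIs, erythroid genes or MHC class II genes reached at least 20 UMIs, or S100a8 and S100a9 reached at least 50. These cells, set apart after the values were seen, gave 10.2%, 6.89%, 3.37% and 2.25% of the members' UMIs. All 121 UMIs of Car1, an erythroid enzyme gene that gave one of the largest ratios of TNF to PBS in TRIF-KO, lay in 1 cell, and all 100 UMIs of Apol7c in the TRIF-KO PBS library lay in 1 cell that also held 39 of the 118 Ccr7 UMIs there. Over all members the 9 erythroid and platelet markers summed to 26472, 24315, 9670 and 1699 CPM, the 11 neutrophil markers to 515, 14.5, 58.9 and 40.5 CPM and the 12 B-cell markers to 115, 418, 147 and 110 CPM. Of the 11 neutrophil markers, 0, 7, 3 and 6 were at 0. In Ccl5-negative T cells the erythroid and platelet markers summed to 15696, 19614, 8595 and 17587 CPM. Cells with at least 10 UMIs of Mki67, Top2a and Hist1h1b numbered 5, 3, 2 and 0. Values without the mixed cells are given beside the results they move.

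TNF was compared with PBS in each genotype over 2991 counted genes, a gene counting as higher or lower past 2-fold. In TRIF-KO, 78 genes (2.61%) were higher and 54 (1.81%) lower. In wild-type, 125 of 2989 genes (4.18%) were higher and 251 (8.4%) lower, which becomes 150 higher and 184 lower when libraries are scaled by the median of ratios in place of total UMIs. The median gene stood at a log2 ratio of 0.03 in TRIF-KO and -0.14 in wild-type, which became -0.01 with the second scaling. The 50 genes higher in both genotypes were 64.1% of those higher in TRIF-KO and 40% of those higher in wild-type. The 32 lower in both were 59.3% and 12.7%.

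**Figure D3:**
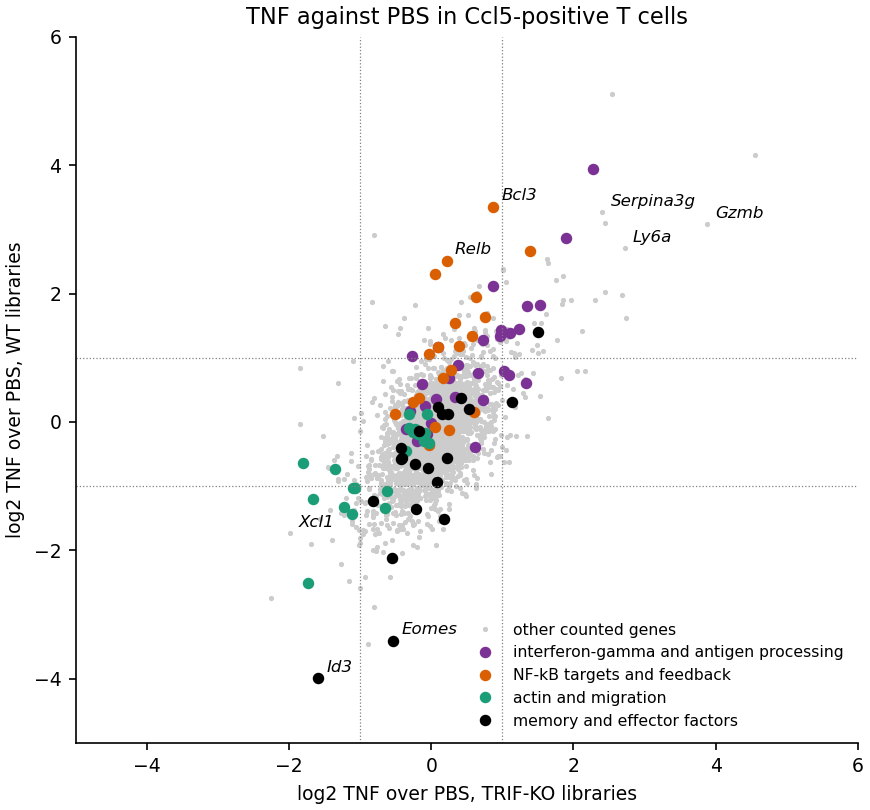
Log2 ratio of TNF over PBS in TRIF-KO libraries (x axis) and wild-type libraries (y axis) for 2988 counted genes in Ccl5-positive T cells, with 4 gene lists in colour and dotted lines at 2-fold. Gzmb, Serpina3g and Ly6a lie high on both axes, NF-kB genes such as Bcl3 (0.87 and 3.35) and Relb lie above the diagonal, and Eomes and Id3 lie low on the wild-type axis.

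The cytotoxic protease gene Gzmb was among the genes with the largest ratios of TNF to PBS in both genotypes. It had 181 CPM with TNF against 12.3 CPM with PBS in TRIF-KO, and 330.5 CPM with TNF against 39.2 CPM with PBS in wild-type. The log2 ratios were 3.88 (3.03 to 4.90) and 3.08 (2.54 to 3.66), and 27 of the 31 UMIs of the wild-type PBS library lay in 1 cell. Both TNF libraries stood above both PBS libraries. At least 1 Gzmb UMI was found in 25.1% (43) and 3.45% (4) of members in TRIF-KO TNF and PBS and in 44.0% (51) and 5.88% (4) in wild-type TNF and PBS, against 0.251%, 0.366%, 0.420% and 0.400% of B cells. The gene was higher with TNF in Ccl5-negative T cells too, at 16.3 against 0.160 CPM in TRIF-KO and 89.2 against 0 CPM in wild-type. In natural killer cells it stood at 742 against 425 CPM in TRIF-KO and 1180 against 335 CPM in wild-type. Gzmb lies on chromosome 14 (56258838 to 56262260, minus strand, mm10).

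Other granule genes did not follow Gzmb. Nkg7 stood at 742 CPM with TNF and 834 CPM with PBS in TRIF-KO, and at 609.7 and 848 CPM in wild-type. Prf1, encoding the pore-forming perforin, stood at 35.2 and 41.3 CPM in TRIF-KO and at 58.0 and 68.3 CPM in wild-type. Gzmm was at 31.4 and 53.6 CPM in TRIF-KO and at 24.2 and 44.3 CPM in wild-type. Of 10 cytotoxic genes, 1 was higher and none lower in TRIF-KO, and 2 were higher and 1 lower in wild-type. Over all genes, 2.61% were higher and 1.81% lower in TRIF-KO, and 4.18% and 8.4% in wild-type. The RNA of Ifng, the effector cytokine, was sparse, with 5 and 15 UMIs in TRIF-KO TNF and PBS and 17 and 12 in wild-type TNF and PBS.

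Intracellular protease inhibitors were higher with TNF alongside Gzmb. Serpina3g had 230.4 CPM with TNF against 43.5 CPM with PBS in TRIF-KO and 195 against 20.2 CPM in wild-type, log2 ratios of 2.40 (1.93 to 2.91) and 3.27 (2.54 to 4.1). Its neighbour Serpina3f had 105 against 4.46 CPM in TRIF-KO and 89.9 against 5.06 CPM in wild-type, log2 ratios of 4.56 (3.18 to 6.45) and 4.15 (2.75 to 6.06), with 4 UMIs in each PBS library. Both genes were low in Ccl5-negative T cells, where Serpina3f stood at 0.975 CPM with TNF and 0 with PBS in TRIF-KO and at 2.21 CPM and 0 in wild-type. Serpina3g was higher with TNF there too, at 2.93 against 0.798 CPM in TRIF-KO and 13.3 against 0.626 CPM in wild-type. In natural killer cells it stood at 1053 against 90.5 CPM in TRIF-KO and 1478 against 145 CPM in wild-type. Serpinb9, the inhibitor of granzyme B, had 70.9 against 37.9 CPM in TRIF-KO and 211 against 49.3 CPM in wild-type. Only the wild-type ratio of Serpinb9 was past 2-fold, a log2 ratio of 2.09 (1.60 to 2.63) beside 0.90 (0.36 to 1.48) in TRIF-KO, which is 1.59 without the mixed cells. The activation marker Cd69 had 272 against 116 CPM in TRIF-KO and 432 against 209 CPM in wild-type, and Bcl2l11, encoding the pro-apoptotic protein BIM, 123 against 43.5 CPM and 191 against 91.0 CPM.

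Genes of the interferon pathways were higher with TNF in both genotypes. Of 29 counted genes of the interferon-gamma and antigen-processing list, 9 were higher and none lower in TRIF-KO (median log2 0.66), and 12 were higher and none lower in wild-type (median 0.77). Of 25 genes of the type I interferon list, 8 were higher and none lower in TRIF-KO (median 0.73), and 7 were higher and 1 lower in wild-type (median 0.53). In Ccl5-negative T cells of the same libraries the same 29 genes gave 3 and 5 higher in TRIF-KO and wild-type, and the same 25 genes 4 and 4, where 1.51% and 2.98% of all genes were higher. Over 12 settings of gate, cells, scaling and depth, 3 to 12 of the first list were higher in TRIF-KO and 7 to 14 in wild-type, and 3 to 9 and 3 to 10 of the second. The lowest counts of both lists came from CD8-bearing cells alone. Ly6a, an interferon-inducible surface protein, had 470.2 against 71.4 CPM in TRIF-KO and 636 against 97.4 CPM in wild-type, log2 ratios of 2.72 (2.35 to 3.11) and 2.71 (2.36 to 3.07). The guanylate-binding protein gene Gbp4 had 169.9 against 67 CPM and 217 against 62.0 CPM, and the related GTPase gene Igtp had 148 against 51.3 CPM and 157 against 44.3 CPM. In each of these genes both TNF libraries exceeded both PBS libraries.

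Chemokine and modifier genes of the same pathways had fewer UMIs. Cxcl10, a chemokine ligand of Cxcr3, had 127 UMIs against 1 in TRIF-KO, a log2 ratio of 5.74 (3.23 to 11.05), with 62 of the 127 in 1 cell. In wild-type it had 82 UMIs against 0, at least 20.9-fold higher against a floor of 3 counts in the PBS library. Isg15, a ubiquitin-like modifier, had 157 against 23.4 CPM in TRIF-KO and 113 against 36.7 CPM in wild-type. Its log2 ratios were 2.75 and 1.62, and 128 of the 335 UMIs of the TRIF-KO TNF library lay in 1 cell, without which the first ratio is 2.45. Iigp1, an interferon-gamma-inducible GTPase, had 59.6 against 12.3 CPM in TRIF-KO and 96.6 against 6.32 CPM in wild-type. Socs3, a feedback inhibitor of cytokine signalling, had 94.3 against 27.9 CPM in TRIF-KO and 229 against 49.3 CPM in wild-type.

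Because these genes were higher together, the 250 bases before each start site in RefSeq (GRCm38.p6, the build of mm10) were searched on both strands for the kappaB motif, the interferon-stimulated response element (ISRE) and the GAS element TTCNNNGAA. Of 49 genes that were higher in both genotypes, outside ribosomal, predicted and similar classes, 35 had a promoter in the table. Of these 35, 6 (17.1%) held a kappaB match, 7 (20%) the interferon element and 7 (20%) GAS. The shares over all 27025 genes were 8.23%, 3.46% and 8.13%, and over 2298 measured genes 10.6%, 4.35% and 7.31%. Of 32 genes lower in both, 21 had a promoter, 1 of which held kappaB and none the other elements. The last 200 bases before the start are shown for 3 of the genes with large ratios of TNF to PBS in both genotypes, with matches in capitals. Isg15 (chr4:156200819-156201018, minus strand) holds 3 overlapping interferon elements, Cxcl10 (chr5:92348890-92349089, minus strand) holds 3 kappaB matches, beginning 159, 104 and 103 bases before the start, and Serpina3g (chr12:104235947-104236146, plus strand) holds kappaB followed by GAS. A match is a run of letters and not a bound site.
Isg15: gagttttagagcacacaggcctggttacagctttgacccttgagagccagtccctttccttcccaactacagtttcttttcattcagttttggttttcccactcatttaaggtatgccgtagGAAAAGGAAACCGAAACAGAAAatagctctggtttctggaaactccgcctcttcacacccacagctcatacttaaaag
Cxcl10: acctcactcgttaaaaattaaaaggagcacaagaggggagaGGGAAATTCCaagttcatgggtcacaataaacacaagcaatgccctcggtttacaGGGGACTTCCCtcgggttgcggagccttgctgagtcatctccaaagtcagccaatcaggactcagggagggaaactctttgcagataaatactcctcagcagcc
Serpina3g: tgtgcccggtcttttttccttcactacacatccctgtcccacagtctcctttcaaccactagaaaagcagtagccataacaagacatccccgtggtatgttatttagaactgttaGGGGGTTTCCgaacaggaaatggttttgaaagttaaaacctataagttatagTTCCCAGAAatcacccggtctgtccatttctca

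NF-kB targets and feedback genes responded less to TNF in mice labelled TRIF-KO than in wild-type, by level of RNA. Of 20 counted genes of the list, 1, Nfkb2, was higher and none lower in TRIF-KO (median log2 0.24), whereas 11 were higher and none lower in wild-type (median 1.11). Directly after TNF, 5 of the 20 were lower in TRIF-KO than in wild-type, where 0.869% of all genes were, and the median was -0.64. The log2 response in TRIF-KO minus that in wild-type was below -1 for 8 of 20, where 2.18% of all genes were, with a median of -0.78. Without the mixed cells 3 were higher in TRIF-KO and 11 in wild-type, 4 were lower in TRIF-KO after TNF, and 4 differed between the responses. The difference between the responses was thus smaller without those cells. In Ccl5-negative T cells the same 20 genes gave 7 higher in TRIF-KO and 10 in wild-type, where 1.51% and 2.98% of all genes were. Over the 12 settings, 0 to 3 members were higher in TRIF-KO and 9 to 12 in wild-type, 4 to 8 were lower in TRIF-KO after TNF, and 4 to 10 differed between the responses.

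Nfkbia, the NF-kB inhibitor that is itself an NF-kB target, had 274 CPM with TNF and 177 with PBS in TRIF-KO, and 503.5 CPM with TNF and 130.2 with PBS in wild-type. Its log2 ratios were 0.62 (0.37 to 0.89) and 1.95 (1.64 to 2.27), a difference of -1.32 (-1.72 to -0.93). The wild-type TNF library was the highest of the 4. Bcl3, a nuclear partner of the p50 and p52 subunits on chromosome 7 (19808462 to 19822770, minus strand), had 36.6 and 20.1 CPM in TRIF-KO and 103 and 10.1 CPM in wild-type, log2 ratios of 0.87 (0.11 to 1.69) and 3.35 (2.32 to 4.60). The AP-1 gene Junb had 219 and 174 CPM in TRIF-KO and 447 and 153 CPM in wild-type. Both genes repeated the order of Nfkbia, with the wild-type TNF library on top.

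Some NF-kB genes rested in part on 1 cell. Relb, a subunit of the alternative pathway, had 49.3 and 42.4 CPM in TRIF-KO and 123 and 21.5 CPM in wild-type, with 16 of the 38 UMIs of the TRIF-KO PBS library in 1 cell. Birc3, an inhibitor of apoptosis that acts at the TNF receptor, had 50.7 and 49.1 CPM in TRIF-KO and 87.0 and 17.7 CPM in wild-type, with 26 of 44 UMIs of the TRIF-KO PBS library in 1 cell. Without the mixed cells the TRIF-KO log2 ratio was 1.30 for Relb, against 0.22 with them, and 1.40 for Birc3, beside wild-type ratios of 2.48 and 2.30. Tnfaip3, encoding the feedback enzyme A20, had 58.2 and 34.6 CPM in TRIF-KO and 74.4 and 24.0 CPM in wild-type, and Irf1 had 144 and 135 CPM and 264 and 118 CPM. The receptor genes themselves were low, with Tnfrsf1a at 11.7 and 21.2 CPM in TRIF-KO and 11.6 and 12.6 CPM in wild-type, and Tnfrsf1b at 18.3 and 27.9 CPM and 30.0 and 19.0 CPM. Their ratios had intervals that included 0 on the log2 scale.

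**Figure D4:**
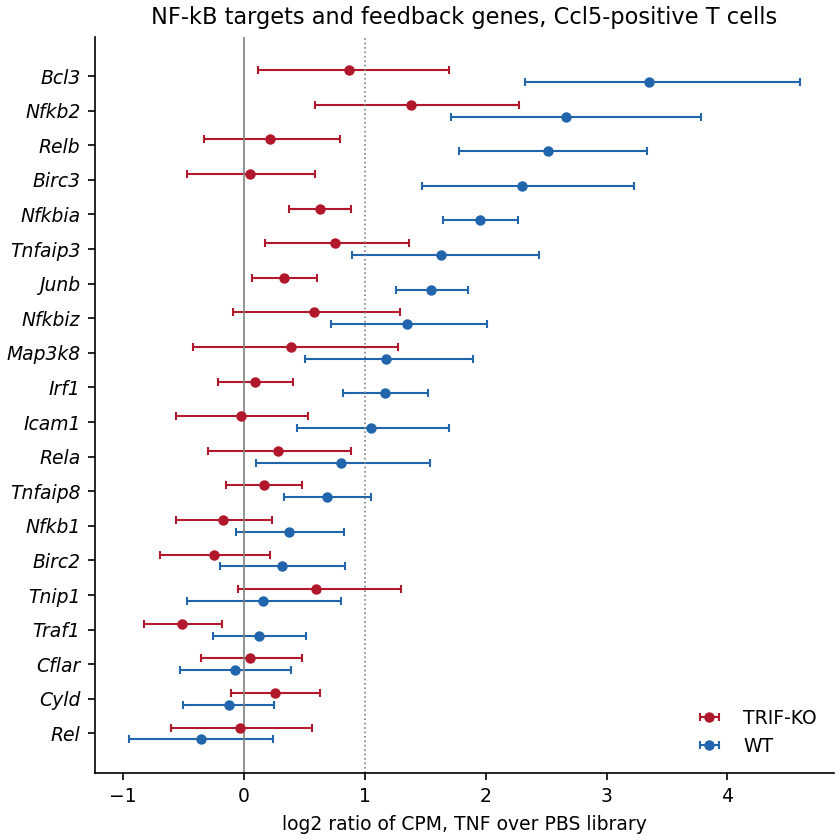
Log2 ratio of TNF over PBS with exact 95% counting intervals for the 20 counted genes of the NF-kB list, TRIF-KO in red above wild-type in blue, with a dotted line at 2-fold. With mixed cells included, only Nfkb2 lies past the line in TRIF-KO, and 11 genes do in wild-type.

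Beyond this list, feedback and activation genes had lower levels after TNF in TRIF-KO than in wild-type. After TNF, 45 of 2991 genes (1.5%) were higher in TRIF-KO and 26 (0.869%) lower. Socs1, a feedback inhibitor of interferon signalling, had 102 CPM in TRIF-KO TNF and 243 CPM in wild-type TNF, a log2 ratio of -1.25 (-1.51 to -0.98), while the PBS libraries stood at 55.8 and 55.6 CPM. The AP-1 gene Fosl2 had 11.3 CPM in TRIF-KO TNF and 64.7 CPM in wild-type TNF, a log2 ratio of -2.52 (-3.26 to -1.83), beside 20.1 and 17.7 CPM with PBS. For Socs1 and Fosl2 the PBS libraries differed little and the TNF libraries differed by more than 2-fold. Socs3 (-1.28), Serpinb9 (-1.57), the kinase gene Map3k8 (-1.52) and Dennd4a, a guanine nucleotide exchange factor for Rab proteins (94.3 against 250.3 CPM, -1.41), were also lower in TRIF-KO TNF. Socs3, Serpinb9 and Map3k8 (19.0 against 31.6 CPM) were lower in TRIF-KO with PBS as well. The PBS levels of Map3k8 rested on 17 UMIs in TRIF-KO and 25 in wild-type. Whether part of the difference between genotypes was present without TNF was not tested for these 3 genes.

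Some genes of migration and the cytoskeleton were lower with TNF in both genotypes. Of 22 counted actin and migration genes, none was higher and 8 were lower in TRIF-KO (median log2 -0.34). In wild-type none was higher and 8 were lower (median -0.39), which is 5 with median-of-ratios scaling. Of 19 chemokine receptor and homing genes, 1 was higher and 5 lower in TRIF-KO (median -0.61), and 1 was higher and 9 lower in wild-type (median -0.96). Over all genes, 1.81% were lower in TRIF-KO and 8.4% in wild-type. In Ccl5-negative T cells, 6 of the same 22 genes were lower in TRIF-KO and 2 in wild-type. Of the same 19 genes, 1 was lower there in TRIF-KO, and 3 were lower and 3 higher in wild-type. Over all genes of those cells, 22 of 2989 and 143 of 2984 were lower. With a Ccl5 minimum of 1, only 1 homing gene and 5 actin and migration genes were lower in TRIF-KO, and 9 and 7 in wild-type. Crip1, a LIM-domain protein gene, had 298 against 942 CPM in TRIF-KO and 338 against 781 CPM in wild-type. Myo1f, a class I myosin of leukocytes, had 25.8 against 85.9 CPM and 15.5 against 88.5 CPM, log2 ratios of -1.74 (-2.26 to -1.22) and -2.52 (-3.40 to -1.72). Actn1, encoding the actin crosslinker alpha-actinin, had 38.9 against 126 CPM and 29.0 against 109 CPM. In all 3 genes both TNF libraries lay below both PBS libraries. S100a4, a calcium-binding protein of motile cells, had 53.5 against 187 CPM in TRIF-KO and 45.4 against 70.8 CPM in wild-type.

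Receptors that place T cells in tissue followed the same direction. Cxcr3 had 61.0 against 132 CPM in TRIF-KO and 53.1 against 142 CPM in wild-type, log2 ratios of -1.11 (-1.48 to -0.74) and -1.41 (-1.91 to -0.94). S1pr1, the receptor for exit from lymphoid organs, had 114 against 231 CPM and 124 against 282 CPM, and Klf2, the factor that controls S1pr1, had 382 against 675 CPM and 227 against 532 CPM. The integrin gene Itgb1 had 88.7 against 185 CPM and 62.8 against 195 CPM. Xcl1, a chemokine that attracts cross-presenting dendritic cells, had 33.8 against 134 CPM in TRIF-KO and 37.7 against 125 CPM in wild-type, log2 ratios of -1.99 (-2.43 to -1.55) and -1.73 (-2.31 to -1.18). Without the cell that held 43 of the 120 Xcl1 UMIs in TRIF-KO PBS, and the highest cell of each other library, the ratios were -1.49 and -1.90. Cd8b1 was also lower, with 307 against 564 CPM in TRIF-KO (-0.88) and 319 against 649 CPM in wild-type (-1.02), while Ly6c2 stayed at 960.6 against 909.5 CPM and 1097 against 1009 CPM.

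**Figure D5:**
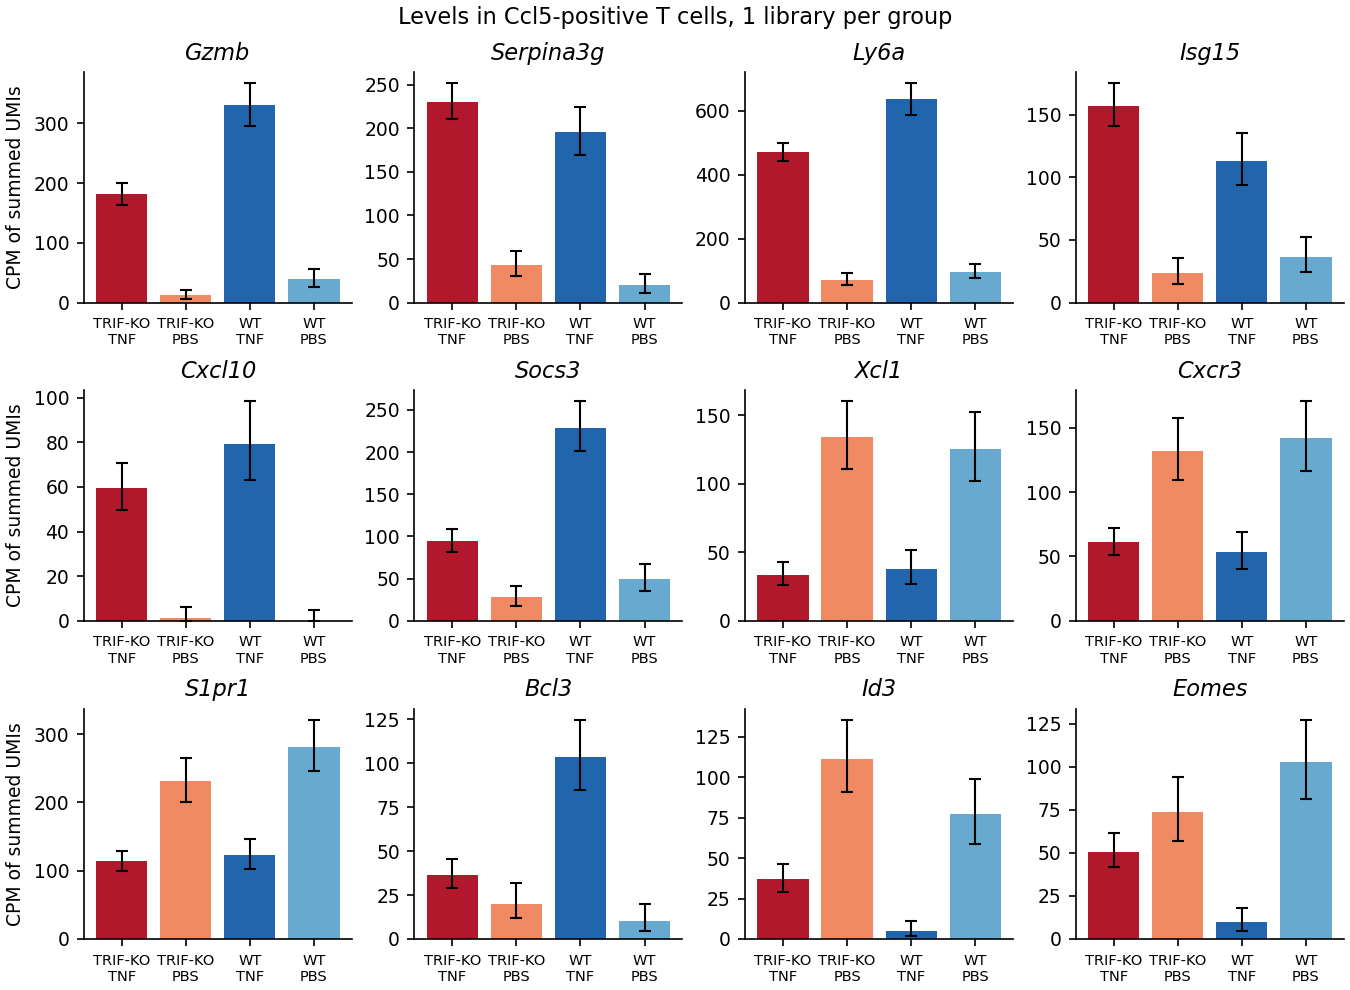
CPM of summed UMIs for 12 genes in Ccl5-positive T cells, 1 bar per library with exact 95% Poisson intervals that cover counting error only. Gzmb, Serpina3g, Ly6a, Isg15, Cxcl10 and Socs3 are higher in both TNF libraries, Xcl1, Cxcr3 and S1pr1 are lower in both, Bcl3 is highest in wild-type TNF (103 CPM), and Id3 and Eomes are lowest there (4.83 and 9.66 CPM).

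Some transcription factors of memory cells were lower with TNF in wild-type, and several of them less so in TRIF-KO. Of 21 counted memory and effector factors, 2 were higher and 1 lower in TRIF-KO, and 1 was higher and 6 lower in wild-type. The shares over all genes were 2.61% higher and 1.81% lower in TRIF-KO, and 4.18% and 8.4% in wild-type. The response in TRIF-KO minus that in wild-type was above 1 for 6 of the 21, where 5.82% of all genes were. Eomes, a T-box factor that sustains memory CD8 cells (chromosome 9, 118478212 to 118486132, plus strand), had 50.7 CPM with TNF and 73.7 with PBS in TRIF-KO, and 9.66 CPM with TNF and 102 with PBS in wild-type. Its log2 ratios were -0.54 (-0.99 to -0.07) and -3.41 (-4.52 to -2.45), a difference between responses of 2.80 (1.77 to 3.83). The wild-type TNF library stood alone at the bottom, with 10 UMIs in 10 cells. Id3, which maintains memory precursors (chromosome 4, 136143497 to 136145755, plus strand), had 37.1 and 112 CPM in TRIF-KO and 4.83 and 77.1 CPM in wild-type, log2 ratios of -1.59 (-2.03 to -1.15) and -4.0 (-5.67 to -2.70). Id3 was thus lower with TNF in both genotypes, and lowest in wild-type TNF.

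Over all genes, the log2 response in TRIF-KO minus that in wild-type was above 1 for 174 of 2988 genes and below -1 for 65 (2.18%), or 103 and 92 with median-of-ratios scaling. Cd5, an inhibitor of T-cell receptor signalling, had 99.96 and 99.3 CPM in TRIF-KO TNF and PBS and 39.6 and 126 CPM in wild-type TNF and PBS, a difference of 1.67 (1.04 to 2.30). Hsph1, a heat-shock chaperone, had 25.3 and 46.9 CPM in TRIF-KO and 6.76 and 74.6 CPM in wild-type, a difference of 2.48 (1.25 to 3.72). The natural-killer receptor gene Klrc2 went opposite ways, with 131 and 64.7 CPM in TRIF-KO and 100.5 and 154 CPM in wild-type, a difference of 1.63 (1.07 to 2.18). For Eomes, Id3, Cd5 and Hsph1 the wild-type TNF library was the lowest of the 4. Rasgrp2, an activator of integrin signalling (-0.93 and -2.41), Klf3 (-0.56 and -2.12), Plek (-0.80 and -2.88) and Cd7 (-1.15 and -2.48) had the same order of TRIF-KO and wild-type log2 ratios.

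The cold-inducible RNA-binding protein genes Rbm3 and Cirbp differed too. Rbm3 had 664 and 416 CPM in TRIF-KO TNF and PBS and 761 and 176 CPM in wild-type TNF and PBS, and Cirbp had 81.2 and 40.2 CPM and 191 and 36.7 CPM. Their log2 ratios were 0.67 and 1.01 in TRIF-KO and 2.12 and 2.38 in wild-type, and no label gives a body temperature. Of 14 heat-shock genes, none was higher or lower in TRIF-KO. In wild-type 1 was higher and 3 lower, where 4.18% and 8.4% of all genes were.

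With PBS alone, about as many genes differed between genotypes as after TNF, where 45 were higher and 26 lower in TRIF-KO. In TRIF-KO, 32 of 2990 genes (1.07%) were higher and 46 (1.54%) lower than in wild-type, or 43 higher and 21 lower with median-of-ratios scaling. Mki67, a marker of cycling cells, had 68.1 against 7.59 CPM and the histone gene Hist1h1b 141 against 7.59 CPM, with 40 of 61 and 98 of 126 UMIs of the TRIF-KO library in 1 cell. Cells with a high count of cycling genes numbered 3 in that library and 0 in wild-type PBS. Among genes lower in TRIF-KO were Klrc2 (-1.25), Dennd2d (41.3 against 102 CPM, -1.31), the adaptor gene Dok2 (23.4 against 64.5 CPM, -1.46) and the ubiquitin ligase gene Rnf111 (24.6 against 77.1 CPM, -1.65). None of the 20 NF-kB genes was lower in TRIF-KO with PBS and 1, Birc3, was higher, which ended without the mixed cells. With median-of-ratios scaling 3 were higher.

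The TNF response of Ccl5-positive cells was then set against that of Ccl5-negative T cells of the same libraries, with genotypes as the 2 replicates of each treatment and libraries as blocks. This was the only comparison with a test, edgeR's quasi-likelihood test of the interaction over 9960 genes, which called 11 genes more positive (0.11%) and 11 more negative (0.11%) in Ccl5-positive cells at a Benjamini-Hochberg adjusted p of 0.05. Without the mixed cells 25 genes were called, of which 13 were among the 22. The 9 others lost their call. They included Apol7c, and Cd74, H2-Aa, H2-Eb1, H2-Ab1, Slc4a1, Tmcc2 and Trim10, which are known as genes of antigen-presenting or erythroid cells. DESeq2 called 3 of the 22, namely Cd74, Slc4a1 and Tmsb4x. After thinning to 2000 UMIs none of the 22 was called, and in CD8-bearing cells 2 were, one of them Ahnak. No gene was called without the library block, where 384 had an unadjusted p under 0.05, against 660 with it.

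Among the 13, Tmem106b, a lysosomal membrane protein gene, had a more positive response in Ccl5-positive cells. It had 120 against 40.2 CPM in TRIF-KO and 117 against 54.4 CPM in wild-type there, and 32.0 against 30.6 CPM and 31.0 against 41.0 CPM in Ccl5-negative cells, a difference of 1.54 (edgeR adjusted p = 0.00572). Celf2, an RNA-binding splicing regulator, was also more positive (0.74, edgeR adjusted p = 0.00572). In DESeq2 both calls ended.

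Trafficking genes had a more negative response in Ccl5-positive cells. S1pr1 had 114 against 231 CPM and 124 against 282 CPM there, and 243 against 331 CPM and 274 against 339 CPM in Ccl5-negative cells, a difference of -0.70 (edgeR adjusted p = 0.0228). Gpr183, the oxysterol receptor that positions lymphocytes in the spleen, had 70.9 against 151 CPM and 76.3 against 154 CPM in Ccl5-positive cells, and 103 against 122 CPM and 143 against 114 CPM in Ccl5-negative cells (-1.04, edgeR adjusted p = 0.0149). The scaffold gene Ahnak (-0.98) and the intermediate filament gene Vim (-0.80) had the same adjusted p of 0.0225 in edgeR. Sgk1, a kinase gene induced by glucocorticoids, had 46.9 against 71.4 CPM and 45.4 against 83.5 CPM in Ccl5-positive cells, and 64.5 against 40.2 CPM and 70.5 against 38.5 CPM in Ccl5-negative cells (-1.46, edgeR adjusted p = 0.00862). Sgk1 had opposite directions in the cell sets, in both genotypes. Map3k8 was more negative (-1.82, edgeR adjusted p = 0.0417), with 24.9 against 19.0 CPM and 71.5 against 31.6 CPM in Ccl5-positive cells and 23.2 against 7.02 CPM and 91.2 against 8.14 CPM in Ccl5-negative cells. None of these 6 genes, nor Tmem106b or Celf2, was called in DESeq2, where their adjusted p ranged from 0.134 to 0.652. Leaving out the wild-type PBS library ended the edgeR calls of Celf2, S1pr1, Gpr183, Vim and Map3k8 (adjusted p 0.0552 to 0.305). Leaving out TRIF-KO TNF ended those of Celf2 and S1pr1 (0.0852 each in edgeR), and leaving out wild-type TNF ended that of Map3k8 (0.106).

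The remaining lists differed in how many members were past 2-fold. Of 14 cytokine receptor genes none was past 2-fold in either genotype, and the interleukin-7 receptor gene Il7r had 1118 against 677 CPM in TRIF-KO and 1009.8 against 871 CPM in wild-type. Of 19 T-cell receptor signalling genes none was past 2-fold in TRIF-KO and 2 were lower in wild-type, where 8.4% of all genes were. Of 10 SOCS and STAT feedback genes 3 were higher in TRIF-KO and 4 in wild-type, and of 16 immediate-early genes 3 were higher in TRIF-KO, and 6 higher and 1 lower in wild-type, against 2.61% and 4.18% of all genes higher in TRIF-KO and wild-type. The 6 became 3 in CD8-bearing cells alone. Of 3 counted TLR4 and TRIF pathway genes none was past 2-fold in TRIF-KO and 1 was higher in wild-type. The glucocorticoid-induced gene Fkbp5 had 111 against 32.4 CPM in TRIF-KO and 88.9 against 36.7 CPM in wild-type, the only one of 8 glucocorticoid genes past 2-fold in either genotype.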

How the data were processed

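Spleen cells of 4 groups, 1 library each, were profiled by droplet-based 3' single-cell RNA sequencing. Per the submitters' processing notes, Cell Ranger 3.0, Seurat 4.1.1 and mm10 were named, whereas the deposited matrix headers name Cell Ranger 6.0.1. The deposited values are raw UMI counts per gene and barcode. From these, barcodes showing 200 or more genes, with no more than 10% of UMIs mitochondrial, were kept, members were gated as described, and the UMIs of members were summed per library and scaled to CPM. Genes were counted when they reached 50 UMIs in all libraries together and 50 CPM in any single one, outside gate genes. Left out as possible free RNA were genes whose CPM in members was under 5% of that in another cell set of the same library. This was judged in the library where the gene was highest in members. A gene past 2-fold was called higher or lower, and log2 ratios carry exact conditional 95% intervals of counting error only. PCR duplicates are removed by UMIs, but cells of 1 library share their source. The response of Ccl5-positive against Ccl5-negative T cells was tested on summed counts with edgeR 4.0.16 (R 4.3.3), quasi-likelihood, libraries as blocks and Benjamini-Hochberg adjustment, with genotypes serving as replicates. DESeq2 1.42.0 was an alternative, and the script was tested on simulated data. No doublet caller was applied to the main gate, and Scrublet in scanpy 1.11.5 was an alternative. Other alternatives changed the gate, depth, scaling, filters and libraries, and removal of mixed cells was chosen after seeing the data.

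Named genes were those past 2-fold ranked by the interval bound nearest no change, up to 8 in each direction per TNF comparison, 6 per genotype comparison after TNF and 4 otherwise, the leading genes of each list by UMIs and by ratio, the leading genes of the test by adjusted p, and a fixed set. Ribosomal, mitochondrial, immunoglobulin, receptor-chain, haemoglobin, sex-linked and predicted genes were left out. Cd69, Gbp4, Igtp, Prf1, Tnfaip3, Lef1 and Bach2 were chosen after their values were seen. The members and the gene lists were chosen with earlier results of these data known. A few genes that passed the rule are not reported here.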

Additional observations from a re-analysis of the deposited data

Results flagged for a closer look

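The TNF response of Ccl5-positive minus that of Ccl5-negative T cells differed in 22 genes by edgeR's quasi-likelihood test with Benjamini-Hochberg adjustment, and 3 of the 22 were called in DESeq2. Among those more positive in Ccl5-positive cells, on the log2 scale, were Tmem106b (1.54), Celf2 (0.74), Lcp1 (0.59), Tmsb4x (0.33), Trat1 (2.13) and the cell-cycle gene Ube2c (3.20), of whose UMIs 38 of 110 in TRIF-KO TNF and 25 of 38 in wild-type TNF lay in 1 cell. More negative were Sgk1 (-1.46), Gpr183 (-1.04), S1pr1 (-0.70), Vim (-0.80), Ahnak (-0.98) and Map3k8 (-1.82). A further 9 were called with mixed cells and not without them, among them Apol7c (-7.15), Cd74 (-2.28), H2-Aa (-2.65), H2-Eb1 (-2.54), H2-Ab1 (-1.84), Slc4a1 (3.38), Tmcc2 (4.63) and Trim10 (3.70).

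In 8 genes the TNF response pointed one way in TRIF-KO and the other way in wild-type, each with an interval that excluded no change, and the difference was not tested because each group was 1 library. The log2 response in TRIF-KO minus that in wild-type was 1.63 for Klrc2 and 1.42 for Rnf111. It was -0.44 for Tmsb10, -0.73 for Jund, -0.34 for H2-K1 and -0.47 for H2-D1. For the histone genes Hist1h1b (-3.62) and Hist1h2ap (-2.11), 98 of 126 and 155 of 241 UMIs of the TRIF-KO PBS library lay in 1 cell.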

How the results depend on the processing

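With no expression filter, counts past 2-fold (higher, lower) were 718 and 660 for TNF in TRIF-KO, 775 and 1442 in wild-type, 789 and 514 for TRIF-KO against wild-type after TNF, 634 and 900 with PBS, and 1438 and 855 for the difference between responses. With a stricter filter they were 41 and 33, 64 and 114, 11 and 15, 12 and 10, and 45 and 28 in the same order. Scaling by the median of ratios gave 21 lower with PBS and 103 higher for the difference, and leaving haemoglobin, immunoglobulin, ribosomal and mitochondrial genes out of CPM gave 27 lower with PBS. CD8-bearing cells gave 78 lower with PBS and 267 higher for the difference. A 5% mitochondrial limit gave 53 and 73 with PBS and 98 lower for the difference. Equal UMIs gave 70 and 41 after TNF. A Ccl5 minimum of 1 gave 32 lower in TRIF-KO, 27 higher after TNF, and shares of 18.3% in TRIF-KO TNF, 15.5% in TRIF-KO PBS and 17.3% in wild-type TNF. A minimum of 5 gave 11.4% in TRIF-KO TNF and 9.53% in wild-type TNF. Thinning to 2000 UMIs gave 10.1% in TRIF-KO TNF, 9.97% in wild-type TNF and 11.3% in wild-type PBS, and thinning to 1000 gave 8.72%, 5.8%, 8.60% and 12.9% in TRIF-KO TNF, TRIF-KO PBS, wild-type TNF and wild-type PBS.

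The interaction test called 11 higher and 11 lower genes. It called 2 and 1 in DESeq2, 75 and 37 without a filter, 4 and 2 in CD8-bearing cells, 1 and 0 after thinning, and 0 and 0 without the library block. Leaving out each library gave 10 to 69 higher and 14 to 21 lower, with 69 and 20 without TRIF-KO PBS, 12 and 21 without TRIF-KO TNF, 10 and 15 without wild-type PBS and 59 and 14 without wild-type TNF, and the lone library is then assumed to vary like the others.

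Signs turned for Blvrb in TRIF-KO (-1.0) and TRIF-KO against wild-type after TNF (-0.106), and Car2 in TRIF-KO (-0.138) and wild-type (-0.371), all without mixed cells, for Car2 in wild-type with Scrublet (-0.338), for Gzmb with PBS without its top cell (0.383), and for the Mki67 difference with equal weights (0.452), without its top cell (0.207) and at 5% mitochondrial UMIs (0.124). The cause was not tested. No paired analysis was possible because each group is 1 library and the labels give no replicate numbers. The members' UMIs limit what low genes can show.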
